A study of Mus musculus with 6 samples.

Results

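The genes described here encode the plasminogen activators and their regulators and the tissue inhibitors of metalloproteinases (TIMPs), 9 genes chosen by symbol out of 53762 gene symbols in the count files: Plau, Plaur, Plat, Serpine2, Serpinb2, Timp1, Timp2, Timp3 and Timp4. RNA was sequenced from immortalized mouse embryonic fibroblasts, connective tissue cells grown from embryos, at 24 hours after seeding in high-glucose medium. The PME-1 knockout (KO) group had 3 libraries and the wild-type (WT) group had 3 libraries, all from the same kind of immortalized culture. PME-1, the product of Ppme1, is the enzyme that demethylates protein phosphatase 2A. The sources used here do not give how the knockout was made, whether the KO cells are a single clone, or the mouse strain. Sex-linked transcripts separated the groups, so genotype cannot be told apart from the sex or origin of the cells for any gene below.

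Plasminogen activators are serine proteases that cut the zymogen plasminogen to plasmin, a broad protease that degrades fibrin and matrix glycoproteins and activates some matrix metalloproteinases. Serpins are suicide inhibitors that trap such proteases, and TIMPs bind the active site of metalloproteinases of the MMP, ADAM and ADAMTS families. Fibroblasts make members of all these families and use them to remodel the collagen-rich matrix around them.

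Total counts were between 34450993 and 44116310 per library. Ppme1 had 705, 636 and 644 counts in KO libraries 1 to 3, against 2828, 3492 and 3774 counts in WT libraries 1 to 3. Its level fell to 17.4 ± 2.14 CPM (counts scaled to library size and composition) in KO cells, against 81.9 ± 4.22 CPM in WT cells (SD, n = 3 each; log2 fold change -2.24, standard error (SE) 0.13, edgeR adjusted p = 0.000563). Libraries KO 1 and WT 1 stood apart from the others of their groups. A chi-square statistic per degree of freedom was 13.14 between KO 2 and KO 3 and 12.73 between WT 2 and WT 3. It was 118 to 136.83 between KO 1 and the other KO libraries and 115.16 to 128 between WT 1 and the other WT libraries. By this statistic WT 1 lay nearer to KO 2 (90.09) and KO 3 (82.3) than to the other WT libraries. KO 1 lay about as far from WT 2 (120.55) and WT 3 (129.3) as from the other KO libraries. The statistic uses raw counts, so abundant genes weigh most. On the first principal component of log2 CPM, the axis of greatest variation (49.4%), KO libraries lay at -58.48 to -54.47 and WT libraries at 53.28 to 58.76. On the second (27.5%), KO 1 lay at 59.44 and WT 1 at -60.87. The other KO libraries lay there at -28.71 to -27.76 and the other WT libraries at 25.75 to 32.15. The labels do not tell whether replicates were grown as separate cultures, and the p-values therefore cover the spread among these libraries alone, part of which may be technical.

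Of the 9 genes, 7 had enough counts to be tested. Serpine2 rose in KO cells, Plau and Timp3 fell, and Plat, Plaur, Timp1 and Timp2 did not pass the test at an adjusted p of 0.05. That is 1 of 7 tested genes higher, where 3.55% of all 15223 tested genes were called higher, and 2 of 7 lower, where 3.86% of all tested genes were called lower. In either direction 7.40% of all tested genes were called. The median log2 fold change was -0.15 over the 7 genes and 0.01 over all tested genes. The KO and WT libraries did not overlap in CPM for 4 of the 7 genes, a separation found in 30.0% of all tested genes. Of these 4, Plau, Plat and Timp3 were lower in every KO library (15.4% of all tested genes) and Serpine2 was higher in every KO library (14.6%). For Plat this separation rested on nearly equal libraries, KO 1 at 111.0 CPM and WT 1 at 111.4 CPM. In bulk RNA, fewer cells of a type and less RNA per cell cannot be told apart, and this holds for every difference below.

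**Figure D1:**
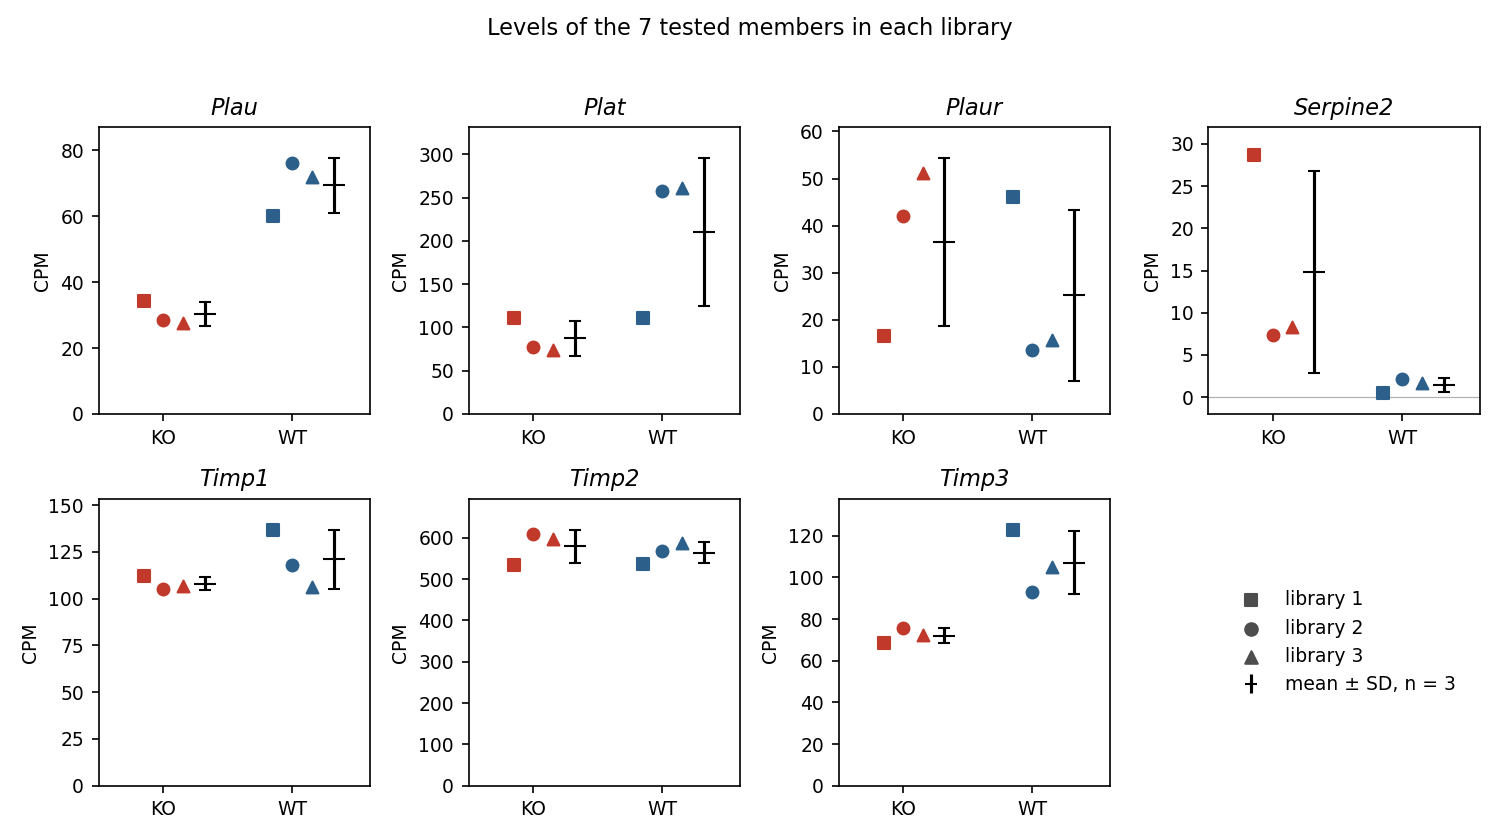
Level in CPM (y axis) of each of the 7 tested genes in KO and WT libraries, with the mean and SD of each group beside the points (n = 3). Plau and Timp3 lie lower in every KO library than in any WT library, Serpine2 lies higher in every KO library, and for Plaur the WT library numbered 1 lies with KO 2 and KO 3.

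Plau encodes urokinase, the plasminogen activator that works at the cell surface during migration and matrix remodelling. The gene (ENSMUSG00000021822.3) lies on the plus strand of chr14:20836660-20843385 in the GENCODE M21 annotation of GRCm38, the build of all positions given here. Plau was at 34.4, 28.5 and 27.7 CPM in KO libraries 1 to 3, against 60.1, 76.1 and 72.0 CPM in WT libraries 1 to 3. All 3 KO libraries were below all 3 WT libraries, and the gap between the groups was wider than the range within either. The mean fell to 30.2 ± 3.64 CPM in KO cells, against 69.4 ± 8.30 CPM in WT cells (SD, n = 3 each), 2.30-fold lower than in WT (log2 fold change -1.20, SE 0.14, 95% interval -1.54 to -0.86, edgeR adjusted p = 0.00542). With 1 library left out at a time the log2 fold change lay between -1.31 and -1.13 and the call held in 6 of 6 settings. Leaving out both KO 1 and WT 1 gave -1.40 (adjusted p = 8.16e-08), in a setting where 48.0% of all tested genes were called. The limit given below for Plaur in that setting holds for Plau too.

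Plat encodes tissue-type plasminogen activator, which acts mainly on fibrin-bound plasminogen. The gene (ENSMUSG00000031538.6) lies on the plus strand of chr8:22757727-22782844. Plat was at 111.0, 77.4 and 73.8 CPM in KO libraries 1 to 3, against 111.4, 258.3 and 261.5 CPM in WT libraries 1 to 3. WT 1 was at the level of KO 1, and WT 2 and WT 3 were far above all other libraries. The means were 87.4 ± 20.5 CPM in KO cells and 210.4 ± 85.7 CPM in WT cells (SD, n = 3 each), and the difference did not pass the test (log2 fold change -1.27, SE 0.35, 95% interval -2.09 to -0.44, unadjusted p = 0.00848, edgeR adjusted p = 0.0816). Without WT 1 the log2 fold change was -1.56 and the gene was called lower (adjusted p = 0.0133). Without KO 1 and WT 1 together the log2 fold change was -1.78 (adjusted p = 1.33e-09), in the setting where 48.0% of all tested genes were called. The limit given below for Plaur in that setting holds for Plat too.

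Plaur encodes the urokinase receptor, a lipid-anchored surface protein that concentrates urokinase at the cell edge. The gene (ENSMUSG00000046223.10) lies on the plus strand of chr7:24462484-24475968. Plaur was at 16.5, 42.0 and 51.1 CPM in KO libraries 1 to 3, against 46.0, 13.6 and 15.8 CPM in WT libraries 1 to 3. KO 2, KO 3 and WT 1 were high and KO 1, WT 2 and WT 3 were low, so the groups overlapped fully and the split ran across genotype. The means were 36.5 ± 17.9 CPM in KO cells and 25.2 ± 18.1 CPM in WT cells (SD, n = 3 each; log2 fold change 0.54, SE 0.58, 95% interval -0.84 to 1.92, edgeR adjusted p = 0.648). KO 2, KO 3 and WT 1 were all above the other libraries in 18.7% of tested genes and all below them in 18.2%, so the order of Plaur is a common one in these data. When KO 1 and WT 1 were left out Plaur was called higher, with a log2 fold change of 1.66 (adjusted p = 1.03e-06), in the setting where 48.0% of genes were called. In that setting genotype cannot be told apart from whatever sets WT 1, KO 2 and KO 3 apart from the other libraries.

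The promoter of Plaur is shown because it is the window among these genes with matches to both the AP-1 motif and the SP1 motif. The windows, from RefSeq on GRCm38.p6, run from 250 bases before to 50 bases after the annotated start, 300 bases in all, and 7 of the 9 genes had at least 1 (8 windows in all). Capitals mark matches to motifs. The AP-1 motif was searched as TGANTCA on both strands. The SP1 motif was searched as GGGCGG on both strands. The TATA box was searched as TATAAA on the sense strand, and the NF-kB motif on both strands. Plaur had 1 AP-1 match, at -69 from the start, and 3 SP1 matches, at -111, -105 and -100, of which those at -105 and -100 overlap by a base.
Plaur, chr7:24462233-24462532, plus strand: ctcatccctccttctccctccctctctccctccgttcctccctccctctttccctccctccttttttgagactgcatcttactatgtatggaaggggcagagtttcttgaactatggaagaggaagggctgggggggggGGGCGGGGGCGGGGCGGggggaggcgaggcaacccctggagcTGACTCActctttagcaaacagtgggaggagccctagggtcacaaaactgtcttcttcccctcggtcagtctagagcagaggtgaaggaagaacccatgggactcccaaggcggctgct
An AP-1 match was present in 7.8% and an SP1 match in 35.7% of the 32851 promoter windows in the table. The other AP-1 match among these genes was in Serpinb2, at -94 in the window of its upstream start, which also held a TATAAA at -29, a match present in 8.3% of all windows. None of the windows of these genes had an NF-kB match, which 1.6% of all windows had. Such matches describe letters and not binding.

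Serpine2 encodes protease nexin-1, a secreted serpin that inhibits thrombin, urokinase and plasmin. The gene (ENSMUSG00000026249.10) lies on the minus strand of chr1:79794197-79861180. Serpine2 had 1110, 316 and 284 counts in KO libraries 1 to 3, against 17, 94 and 71 counts in WT libraries 1 to 3. These counts are 28.7, 7.41 and 8.34 CPM in KO libraries 1 to 3, against 0.472, 2.17 and 1.63 CPM in WT libraries 1 to 3. All KO libraries were above all WT libraries, with KO 1 the highest and WT 1 the lowest of the 6. The spread within each group was beyond counting error: the 95% Poisson interval of KO 1 was 27.0 to 30.5 CPM against 6.62 to 8.28 CPM for KO 2, and that of WT 1 was 0.275 to 0.755 CPM against 1.75 to 2.66 CPM for WT 2. The mean rose to 14.8 ± 12.0 CPM in KO cells, against 1.42 ± 0.868 CPM in WT cells (SD, n = 3 each; 10.3-fold, log2 fold change 3.37, SE 0.75, 95% interval 1.58 to 5.16, edgeR adjusted p = 0.0451). The call was lost in all 6 settings that left out 1 library, with adjusted p-values between 0.06 and 0.166, and without KO 1 the log2 fold change was 2.45. With both KO 1 and WT 1 left out it was 2.05 (adjusted p = 3.28e-05), in the setting where 48.0% of all tested genes were called. The limit given for Plaur in that setting holds here too.

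The promoter window of Serpine2 is shown because this gene had the highest fold change of the 7 and the most SP1 matches of the 8 windows. It held 77.7% G and C and 41 CpG pairs, against medians of 52.7% and 7 over all windows, and 6 SP1 matches between -161 and -13, some of which overlap. The RefSeq start of this window lies inside the GENCODE span of the gene, whose upstream end is at 79861180.
Serpine2, chr1:79858616-79858915, minus strand: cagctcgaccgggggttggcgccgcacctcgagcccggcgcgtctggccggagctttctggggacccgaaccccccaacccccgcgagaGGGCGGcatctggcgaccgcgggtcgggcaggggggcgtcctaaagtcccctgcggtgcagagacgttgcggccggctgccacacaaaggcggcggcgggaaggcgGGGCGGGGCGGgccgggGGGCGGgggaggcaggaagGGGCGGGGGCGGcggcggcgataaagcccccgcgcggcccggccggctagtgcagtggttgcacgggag

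Serpinb2, which encodes plasminogen activator inhibitor 2, a serpin that is largely kept inside the cell, was at the limit of detection. The gene (ENSMUSG00000062345.10) lies on the plus strand of chr1:107511423-107535478 and overlaps Serpinb10, which had 0 counts in every library. Serpinb2 had 0, 0 and 3 counts in KO libraries 1 to 3, against 0, 0 and 4 counts in WT libraries 1 to 3. A count of 0 allows up to 0.0776 CPM in KO 1 and 0.0832 CPM in WT 1 (3 counts, counting error only), so no fold is given and a difference was not detectable at this depth.

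Timp1 encodes a secreted inhibitor of many matrix metalloproteinases, known for its binding to the zymogen of the gelatinase Mmp9. The gene (ENSMUSG00000001131.11) lies on the plus strand of chrX:20870166-20874735, inside the opposite-strand gene Syn1. Timp1 was at 112, 105 and 107 CPM in KO libraries 1 to 3, against 137, 118 and 106 CPM in WT libraries 1 to 3. The groups overlapped through WT 3, and WT 1 was the highest library. The means were 108 ± 3.55 CPM in KO cells and 121 ± 15.6 CPM in WT cells (SD, n = 3 each), and the difference did not pass the test (log2 fold change -0.15, SE 0.12, 95% interval -0.44 to 0.13, edgeR adjusted p = 0.514). Sex-linked transcripts separated the groups. Xist was at 0.229 ± 0.0998 CPM in KO cells and 431 ± 60.2 CPM in WT cells. Ddx3y of the Y chromosome was at 63.0 ± 7.67 CPM in KO cells and had 0 counts in each WT library. Genotype therefore cannot be told apart from the sex or origin of the cells, for Timp1 and for every other gene here. Of 507 tested genes on the X chromosome 23 were called higher and 24 lower, with a median log2 fold change of -0.06. Over all tested genes the shares called were 3.55% higher and 3.86% lower.

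Timp2 encodes the inhibitor that also takes part, with Mmp14, in the activation of the Mmp2 zymogen at the cell surface. The gene (ENSMUSG00000017466.9) lies on the minus strand of chr11:118301069-118355740 and overlaps Cep295nl on the same strand. Timp2 was at 534, 608 and 598 CPM in KO libraries 1 to 3, against 537, 567 and 588 CPM in WT libraries 1 to 3. The ranges of the groups overlapped along most of their length. The means were 579.9 ± 39.9 CPM in KO cells and 564 ± 25.4 CPM in WT cells (SD, n = 3 each; log2 fold change 0.04, SE 0.11, edgeR adjusted p = 0.877), and the 95% interval reached from 0.858-fold to 1.23-fold.

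Timp3 encodes the TIMP that is held in the matrix and that also inhibits several ADAM and ADAMTS proteases. The gene (ENSMUSG00000020044.13) lies on the plus strand of chr10:86300372-86349506, inside the opposite-strand gene Syn3. Timp3 was at 68.4, 75.7 and 72.2 CPM in KO libraries 1 to 3, against 123, 93.1 and 105 CPM in WT libraries 1 to 3. Every KO library was below every WT library, and the KO libraries were the closer to each other. The mean fell to 72.1 ± 3.61 CPM in KO cells, against 107 ± 15.1 CPM in WT cells (SD, n = 3 each; 1.48-fold, log2 fold change -0.57, SE 0.13, 95% interval -0.87 to -0.27, edgeR adjusted p = 0.0451). The call was lost in all 6 settings that left out 1 library, with log2 fold changes between -0.66 and -0.45 and adjusted p-values between 0.0592 and 0.169. It was called with both KO 1 and WT 1 left out, at -0.42 (adjusted p = 0.000638), in the setting where 48.0% of all tested genes were called. The limit given for Plaur in that setting holds for Timp3 too.

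The promoter window of Timp3 is shown as that of the TIMP whose level changed. It held 67.0% G and C, 24 CpG pairs and 2 SP1 matches, at -15 and 14. The windows of Timp1 and Timp2 each held 1 SP1 match, at -8 and -37, and that of Timp4 had no match to any of the motifs searched.
Timp3, chr10:86300162-86300461, plus strand: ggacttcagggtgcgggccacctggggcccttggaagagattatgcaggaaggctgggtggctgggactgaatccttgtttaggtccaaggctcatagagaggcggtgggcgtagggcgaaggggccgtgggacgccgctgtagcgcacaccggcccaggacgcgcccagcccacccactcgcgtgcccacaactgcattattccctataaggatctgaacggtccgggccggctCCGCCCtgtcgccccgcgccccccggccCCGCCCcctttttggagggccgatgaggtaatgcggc

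Timp4, the TIMP best known from heart and brain, was near 0. The gene (ENSMUSG00000030317.8) lies on the minus strand of chr6:115241892-115252205, inside the opposite-strand genes Syn2 and Gm17482. Timp4 had 3, 0 and 0 counts in KO libraries 1 to 3, against 0 counts in each WT library, and no fold is given. The synapsin genes that hold TIMP genes in their introns were low as well. Syn1 was at 2.26 ± 1.19 CPM in KO cells and 3.89 ± 0.724 CPM in WT cells, and Syn3 at 0.26 ± 0.111 CPM in KO cells and 0.275 ± 0.262 CPM in WT cells. Syn2 had 0 counts in each KO library and 1 count in all over the WT libraries. Of the 2 tested synapsin genes, Syn1 and Syn3, 0 were called by edgeR, 0 at an unadjusted p under 0.05 and 0 by DESeq2. The library kit keeps strand, but the strand setting of the counting is not known, so reads of a TIMP gene and of its opposite-strand host cannot be told apart.

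**Figure D2:**
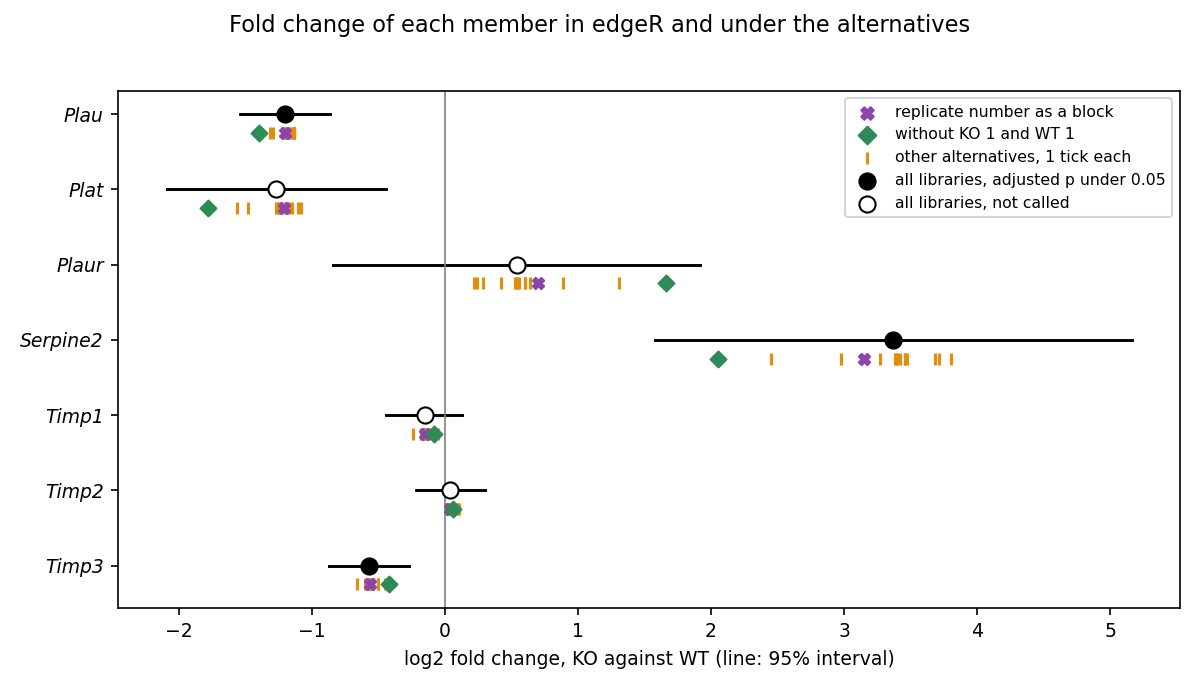
Log2 fold change of KO against WT (x axis) for each tested gene, with its 95% interval (line), filled where the edgeR adjusted p was under 0.05, and under each alternative (marks below the line). The marks of Plau stay between -1.40 and -1.13, those of Serpine2 spread from 2.05 to 3.80, and those of Plaur from 0.22 to 1.66.

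Levels of different genes were compared per length, as CPM per kb of merged exons. Timp2 and Timp1 were the highest of the 9 genes. Timp2 was at 149 ± 10.3 CPM per kb in KO cells and 145 ± 6.53 in WT cells, and Timp1 was at 122 ± 3.99 CPM per kb in KO cells and 136 ± 17.5 in WT cells. The KO libraries of Timp1 and Timp2 did not overlap, while their WT libraries did. Next came Plat at 14.0 ± 3.29 CPM per kb in KO cells and 33.7 ± 13.7 in WT cells, Plau at 12.7 ± 1.54 in KO cells and 29.3 ± 3.51 in WT cells, Plaur at 14.0 ± 6.85 in KO cells and 9.61 ± 6.93 in WT cells, and Timp3 at 8.85 ± 0.444 in KO cells and 13.1 ± 1.86 in WT cells. Plat, Plau and Plaur overlapped each other in KO cells, Plat overlapped Plau in WT cells, and Plaur overlapped Timp3 in both groups. Serpine2 was lower, at 1.79 ± 1.45 CPM per kb in KO cells and 0.172 ± 0.105 in WT cells. The order among Plat, Plau, Plaur and Timp3 depends on the length used: per kb of the longest transcript Timp3 was above Plau in KO cells, at 15.3 against 12.9 CPM per kb.

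The summed TIMP level was 279.6 ± 6.73 CPM per kb in KO cells and 294 ± 12.4 CPM per kb in WT cells (SD, n = 3 each). Of this sum, Timp2 made up 53.2% ± 2.42 in KO cells and 49.4% ± 4.24 in WT cells, and Timp1 43.6% ± 2.49 in KO cells and 46.1% ± 4.0 in WT cells. The share of Timp3 was 3.09%, 3.27% and 3.13% in KO libraries 1 to 3, against 4.92%, 3.95% and 4.53% in WT libraries 1 to 3. The shares of Timp1 and Timp2 overlapped between the groups, and that of Timp3 did not.

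**Figure D3:**
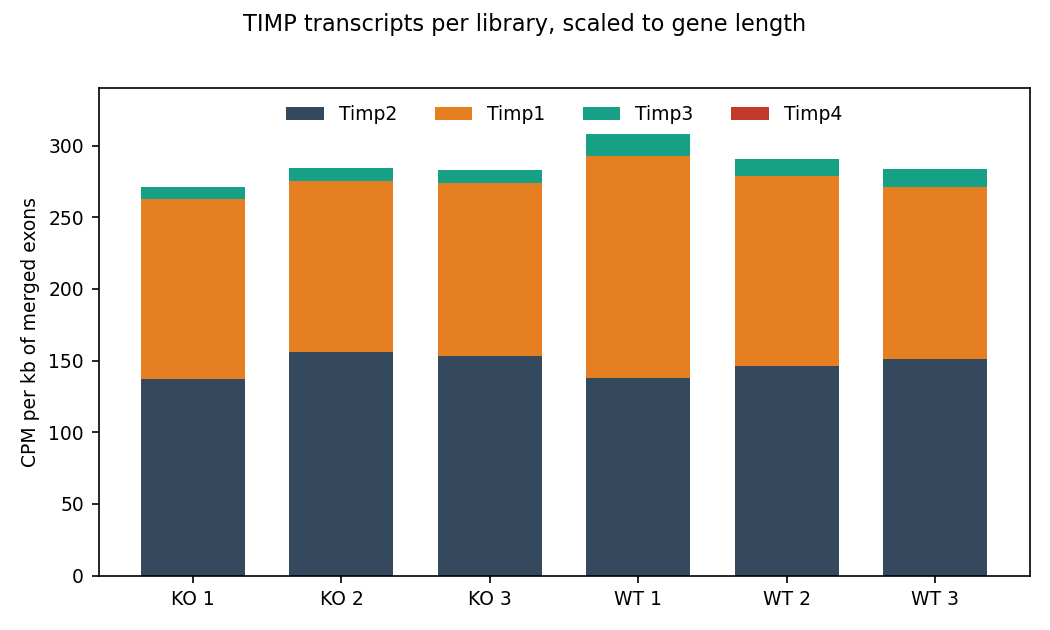
Level of each TIMP gene in CPM per kb of merged exons (y axis), stacked, in each KO and WT library. The stacks are 272 to 308 CPM per kb in height, with Timp2 and Timp1 filling nearly all of each and Timp4 too low to be seen.

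These genes differed in how much they varied within a group. The coefficient of variation of Timp2 was 6.89% in KO cells and 4.51% in WT cells, and that of Plau was 12.1% in KO cells and 12.0% in WT cells. Serpine2 had 81.2% in KO cells and 61.0% in WT cells, and Plaur 49.0% in KO cells and 72.1% in WT cells. In these genes the highest library of a group was 3.09 to 4.6 times the lowest.

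Other genes of the plasmin system were mostly below the threshold. Plg, which encodes plasminogen itself, and Vtn, which encodes vitronectin, had 0 counts in all 6 libraries. Of 22 listed genes 13 were tested, of which 2 fell and 0 rose by edgeR, where 3.55% of all tested genes rose and 3.86% fell. At an unadjusted edgeR p under 0.05, 2 were higher and 5 lower, and by DESeq2 2 were higher and 4 lower. Anxa2, which forms a plasminogen receptor at the cell surface with S100a10, fell to 919 ± 86.2 CPM in KO cells, against 1726 ± 74.9 CPM in WT cells (1.88-fold, edgeR adjusted p = 0.00772). The Anxa2 call held in 5 of 6 settings that left out 1 library, and without WT 3 the adjusted p was 0.0504. Lrp1, the endocytic receptor that clears complexes of plasminogen activators with serpins, fell to 496 ± 67.9 CPM in KO cells, against 1081 ± 313 CPM in WT cells (2.18-fold, edgeR adjusted p = 0.0336). The Lrp1 call was lost without any 1 of KO 1, KO 2, KO 3 or WT 3 (adjusted p-values of 0.0505 to 0.146). The median log2 fold change of the list was -0.41. With KO 1 and WT 1 left out, 4 of its 13 genes were called higher and 6 lower, in a setting where 23.3% of all tested genes were called higher and 24.6% lower. Of 18 further serpins 8 were tested, of which 1 fell and 0 rose by edgeR (0 higher at an unadjusted p under 0.05 and 0 by DESeq2), with a median of 0.00. The gene that fell was Serpinh1, a collagen chaperone that does not inhibit proteases, at 1061 ± 7.69 CPM in KO cells and 1627 ± 74.8 CPM in WT cells (1.53-fold lower, edgeR adjusted p = 0.0185). The Serpinh1 call held without KO 1 or without WT 1 and was lost without any 1 of the other 4 libraries (adjusted p-values of 0.0959 to 0.105).

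Among metalloproteinases, the enzymes that TIMPs bind, and the membrane-anchored inhibitor Reck, 25 of 28 listed genes were tested, of which 5 fell and 1 rose, where 3.86% of all tested genes fell and 3.55% rose. The median log2 fold change of the list was -0.30. Mmp2, a gelatinase, was at 58.3 ± 12.7 CPM in KO cells and 333 ± 99.7 CPM in WT cells (5.71-fold lower, edgeR adjusted p = 0.00417). Adam10, a membrane sheddase, was at 157 ± 7.58 CPM in KO cells and 368 ± 32.5 CPM in WT cells (2.35-fold lower, edgeR adjusted p = 0.00218). Adamts2, which trims procollagen, was at 0.779 ± 0.423 CPM in KO cells and 3.19 ± 0.655 CPM in WT cells (4.08-fold lower, edgeR adjusted p = 0.0447), and Mmp23 was at 14.6 ± 8.77 CPM in KO cells and 2.18 ± 0.322 CPM in WT cells (6.71-fold higher, edgeR adjusted p = 0.0158). Of the 6 settings that left out 1 library, the Adamts2 call held only without KO 1, with adjusted p-values of 0.0621 to 0.166 in the others. The Mmp23 call was lost without WT 2 (adjusted p = 0.0771) and without WT 3 (adjusted p = 0.0747). Without KO 1 the log2 fold change of Mmp23 was 2.13, against 2.75 with all libraries, and the call held. Mmp16 also fell, to 5.53 ± 0.252 CPM in KO cells, against 10.1 ± 0.604 CPM in WT cells (1.83-fold, edgeR adjusted p = 0.0289). Adam15 was at 118 ± 10.5 CPM in KO cells and 169 ± 15.6 CPM in WT cells (1.44-fold lower, edgeR adjusted p = 0.048, close to the threshold). With 1 library left out at a time, 2 to 6 genes of the list were called. In the setting without KO 1 and WT 1, 13 genes of the list were called lower and 1 higher of 24 tested, against 24.6% of all tested genes lower and 23.3% higher. Of 8 AP-1 factors, which are known to act at the promoters of Plau and Plaur, 2 rose and 0 fell by edgeR (0 lower at an unadjusted p under 0.05 and 0 by DESeq2). Atf3 rose to 18.6 ± 0.918 CPM in KO cells, against 5.62 ± 1.5 CPM in WT cells (3.32-fold, edgeR adjusted p = 0.00713), and Fosl2 to 272 ± 17.8 CPM in KO cells, against 177 ± 6.55 CPM in WT cells (1.54-fold, edgeR adjusted p = 0.0169). The Fosl2 call held without KO 1 or without WT 1 and was lost without any 1 of the other 4 libraries (adjusted p-values of 0.0709 to 0.0985).

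**Figure D4:**
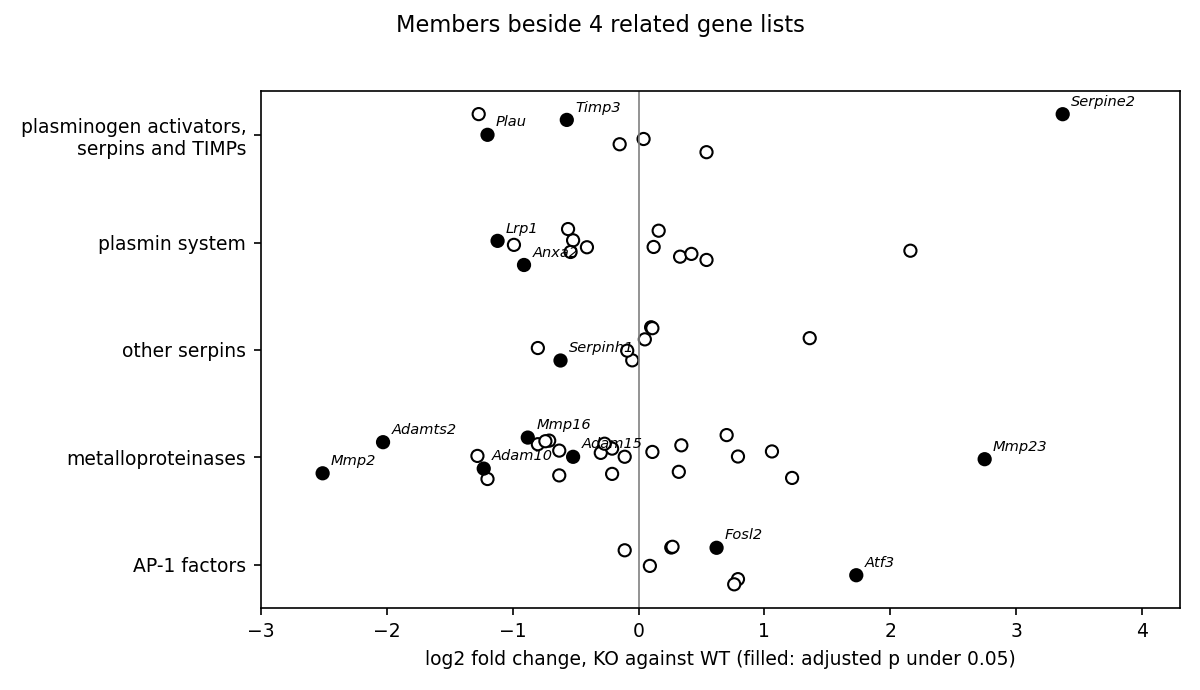
Log2 fold change of KO against WT (x axis) of the 7 tested genes and of the tested genes of 4 related lists (rows). Filled and named points had an edgeR adjusted p under 0.05, and the metalloproteinase list holds 5 of them on the lower side and Mmp23 on the higher side.

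The genes with the nearest profile over the 6 libraries were found by Euclidean distance of log2 CPM centred on each gene's mean, among 10075 genes whose mean reached 5 CPM. They were picked for this likeness, so their own differences between KO and WT are no separate result. Nearest to Plau were Bgn (distance 0.162), Col18a1 (0.169) and Nacc2 (0.174), of which Bgn encodes the proteoglycan biglycan and Col18a1 a basement membrane collagen. All 3 of these were called lower, Bgn at 701 CPM in KO cells and 1653 CPM in WT cells. With 1 library left out at a time, the call held in 6 of 6 settings for Bgn and for Nacc2, and in 2 of 6 for Col18a1. Nearest to Timp3 were Fbln5 (0.118), an elastic fibre gene, Il1rap (0.150) and Fam13b (0.170), none of which passed the threshold in edgeR, with adjusted p-values of 0.058, 0.104 and 0.0508. Nearest to Serpine2 were the MHC class I gene H2-Q4 (0.684), the heparanase gene Hpse (0.779) and the interferon-induced gene Rsad2 (0.822), with KO 1 highest and WT 1 lowest in each, and none of them passed either (adjusted p-values of 0.0521, 0.0767 and 0.0699). Reads of H2-Q4 are uncertain because near-identical MHC genes exist. For Plaur, taken up after its values were seen, the nearest were Cavin2 (0.252), the receptor kinase gene Epha2 (0.253) and the thrombospondin gene Thbs1 (0.275).

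**Figure D5:**
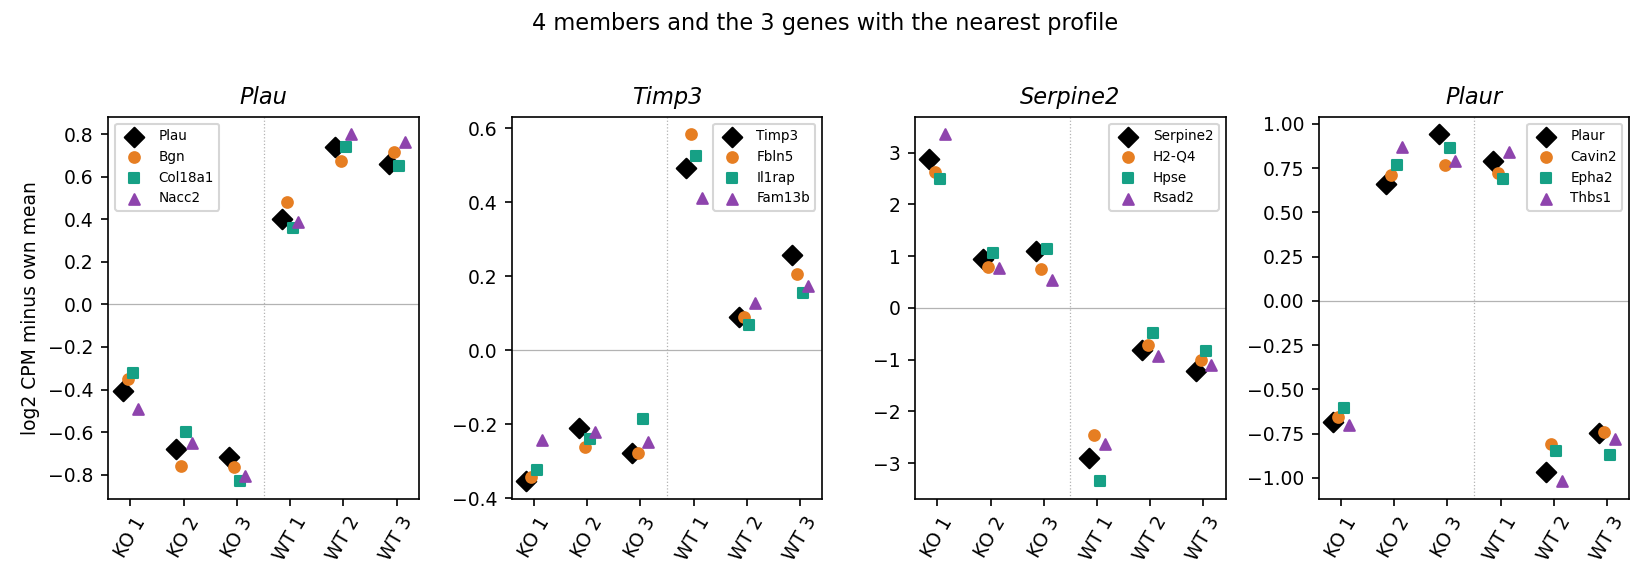
Log2 CPM minus the gene's own mean (y axis) in each library for Plau, Timp3, Serpine2 and Plaur (diamonds) and the 3 genes nearest to each. Plau and Timp3 split by genotype, Serpine2 also splits by genotype with KO 1 and WT 1 at the ends, and Plaur is high in KO 2, KO 3 and WT 1.

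The labelled cell type was checked with marker lists. Over all tested genes, 3.55% were called higher and 3.86% lower. Of 11 fibroblast markers 10 were tested, of which 2 fell (Col1a1 and Pdgfrb) and 0 rose by edgeR. At an unadjusted edgeR p under 0.05, 2 were higher and 3 lower, and by DESeq2 1 was higher and 3 lower. Thy1 was at 6.52 ± 2.52 CPM in KO cells and 2.31 ± 1.22 CPM in WT cells (edgeR adjusted p = 0.134). Dcn was at 30.3 ± 28.6 CPM in KO cells and 6.56 ± 4.83 CPM in WT cells (edgeR adjusted p = 0.225). Both were higher in every KO library than in any WT library, as were 14.6% of all tested genes. The summed level of the list, in which abundant genes weigh most, was 12823 to 14947 CPM in KO libraries and 15731 to 21576 CPM in WT libraries. Fap had too few counts to test and none of the 11 was at 0 in all libraries. Of 8 epithelial markers 5 were tested and Krt8 and Krt18 rose, while Krt5, Krt14 and Esrp1 had 0 counts in every library. The other tested markers, Krt19, Epcam and Cdh1, did not pass (edgeR adjusted p-values of 0.154, 0.968 and 0.632). Krt19 overlapped between the groups, with KO 1 at 29.1 CPM and WT 1 at 29.5 CPM. Epcam had a log2 fold change of 0.07 and Cdh1 of -1.35, both at low levels. The summed level, mostly Krt18 and Krt19, was 126 to 144 CPM in KO libraries and 8.24 to 31.8 CPM in WT libraries. The 9 macrophage markers summed to 7.81 to 10.2 CPM in KO libraries and 7.92 to 8.21 CPM in WT libraries, with Adgre1, Itgam and Tyrobp at 0, and 0 of 3 tested were called by edgeR (0 at an unadjusted p under 0.05 and 0 by DESeq2). The 7 endothelial markers summed to 2.44 to 3.44 CPM in KO libraries and 0.878 to 2.19 CPM in WT libraries, with Emcn and Cldn5 at 0, and Tek rose. The part of the fibroblast, epithelial and endothelial marker differences in the changes of Plau, Serpine2 and Timp3 was not tested.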

How the data were processed

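RNA was measured in 6 libraries made with a strand-keeping kit, per the labels' protocols. Each deposited file holds raw read counts of 1 library by gene symbol. Trim Galore 0.6.6, HISAT2 2.2.1 and a human genome build are named in the submitters' processing notes, while the symbols are those of mouse genes. They state neither the counting program nor its annotation or strand setting. Groups follow the sample titles, because the genotype fields of KO 2 and KO 3 carry other numbers after PME.

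The test was edgeR 4.0.16 (R 4.3.3, filterByExpr, TMM factors, robust quasi-likelihood fit, no covariates), adjusted by Benjamini-Hochberg over 15223 genes, with calls at 0.05. The filter removed Serpinb2 and Timp4. CPM uses the TMM factors, and the SE is the log2 fold change divided by the square root of F. A floor of 3 counts is 0.0689 to 0.0881 CPM per library. Intervals and floors cover counting error only. Alternatives were DESeq2 1.42.0, limma-voom (limma 3.58.1), other scaling and filters, the replicate number as a block, and libraries left out. The fit was tested on simulated data. Positions and merged exon lengths are from GENCODE M21 (GRCm38), in which 92.9% of symbols were found, and promoter sequences from RefSeq (GRCm38.p6).

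The text names all 9 genes, up to 4 called genes per list (mean CPM of 1 or more), and the 3 nearest profiles of each called gene (pseudocount 0.05 CPM; unnamed gene models, pseudogenes, Xist and Y-linked genes left out). The genes, lists and tests were chosen with earlier results of these data known. Mmp16, Adam15, Plg, Vtn, Thy1, Dcn, Krt19, Epcam, Cdh1 and the sex-linked genes are outside this rule and were chosen after their values were seen.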

Additional observations from a re-analysis of the deposited data

How the results depend on the processing

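The direction of all 7 tested genes was kept in the 15 alternatives run. Plau was called in 14 of 15 alternatives, Timp3 in 7, Serpine2 in 4, Plat in 3, Plaur in 1, and Timp1 and Timp2 in 0 (adjusted p-values of at least 0.377 for Timp1 and 0.357 for Timp2). With 1 library left out, the number of these genes called higher was 0 in each setting, and 1 to 2 were called lower; all genes called numbered 332 to 1216 (170 to 556 higher, 162 to 660 lower), the plasmin system list had 0 to 4 called, the other serpins 0 to 1, metalloproteinases 2 to 6, AP-1 factors 1 to 2 and synapsins 0. DESeq2 called 2406 genes (1195 higher, 1211 lower) and 6 of the plasmin system. The number of the 9 genes called higher was 0 with limma-voom, with upper-quartile factors, with library size alone and among genes with a mean CPM of 5 or more. With upper-quartile factors 1 was called lower, and with library size alone 3 metalloproteinases were called. Without KO 1 and WT 1, 7408 of 15449 tested genes were called (48.0%, with 3605 higher and 3803 lower). Of the 9 genes, 2 were called higher (Serpine2 and Plaur) and 3 lower (Plau, Plat and Timp3). In that setting 10 of 13 tested genes of the plasmin system were called (4 higher, 6 lower). So were 5 of 8 other serpins (0 higher, 5 lower), 14 of 24 metalloproteinases (1 higher, 13 lower) and 5 of 8 AP-1 factors (4 higher, 1 lower). With the replicate number as a block, 8 genes were called (3 higher, 5 lower), with 0 of the 9 genes higher, 0 lower and 0 in each list, and Ppme1 was at -2.24 (adjusted p = 0.0518). The labels do not say that numbers mark a shared batch. Deviations of same-numbered libraries correlated at -0.512, -0.307 and -0.223. These correlations are not independent, because the library numbered 1 stood apart in each genotype. They therefore cannot tell whether a number marks a shared batch. Depth limited Serpinb2 and Timp4, each with fewer than 5 counts per library.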
